A study of Bos taurus with 50 samples.

Results

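The comparison described here was between the endometrium of cows that were cycling but had no circulating progesterone (P4) at their biopsy in week 5 after calving (CycNoP4, n = 4) and that of cows that were cycling with circulating P4 in the same week (CycW5, n = 10). These 14 libraries of the 50 in the series were chosen by their labels alone, and all genes of the raw count table entered the tests. The study sequenced messenger RNA from endometrial biopsies of first-lactation dairy cows sampled at week 5 and again at week 9. The CycW5 cows had a corpus luteum, the P4-secreting gland that forms on the ovary after ovulation. The CycNoP4 cows had had high P4 in the preceding week, but at week 5 their P4 was low and they had either no corpus luteum or one with a large lacuna. The study left the CycNoP4 cows out of its analysis, and it analysed fewer CycW5 cows than there are CycW5 libraries here. Another week 5 group, the cows not yet cycling (NoCycW5, n = 12), had a follicle but no corpus luteum and had not had measurable P4 up to that week. Before week 9 every cow was given the same synchronization of ovulation, with a P4 insert, gonadotropin-releasing hormone and prostaglandin, so that the week 9 biopsies (3 CycNoP4 and 10 CycW5 libraries) fell in the luteal phase. No agent or genotype distinguished the groups, the day of the cycle at week 5 is not given in the sources used here, and the labels do not link libraries to cows, so p-values measure the spread between libraries.

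P4 acts on the endometrium through its nuclear receptor and prepares the glands and lining epithelium to secrete and transport nutrients for an embryo. Under continued P4, the uterus of ruminants holds down its oxytocin receptor, which, once it returns, lets oxytocin trigger the prostaglandin pulses that end the luteal phase. Estrogen, which rises when P4 is low, acts on the same tissue through estrogen receptors.

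Between 28307781 and 32715330 reads were assigned to genes in the CycNoP4 libraries, 25131393 to 32813237 in the CycW5 libraries and 24235270 to 32446681 in the NoCycW5 libraries, so depth overlapped between groups. No pair of the 14 libraries had counts as alike as sampling noise alone would give (lowest mean chi-square over 16703 genes, 46.89). Levels are given as counts per 1000000 reads (CPM) after TMM scaling and compare libraries within a gene, not genes with each other. In bulk tissue, fewer cells of a type and less RNA per cell cannot be told apart.

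A few libraries stood apart from their group. Each library was placed on an axis on which 0 is the mean of the CycNoP4 and 1 the mean of the CycW5 libraries, using genes that differed between the groups. For each of the 14 compared libraries, the genes and means were taken with that library left out. All other libraries were placed with the 2786 called genes and the full group means, so their positions are only roughly comparable with those of the 14. The CycNoP4 libraries 51, 56 and 58 lay at 0.209, 0.075 and 0.170, and library 64 at 0.589. Of the CycW5 libraries, 8 lay between 0.974 and 1.175, library 52 at 0.686 and library 57 at 0.309. Library 57 therefore lay within the range of the NoCycW5 libraries (0.109 to 0.575) although its label gives it circulating P4. Its label was kept, and values without it are given where results rest on it.

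**Figure D1:**
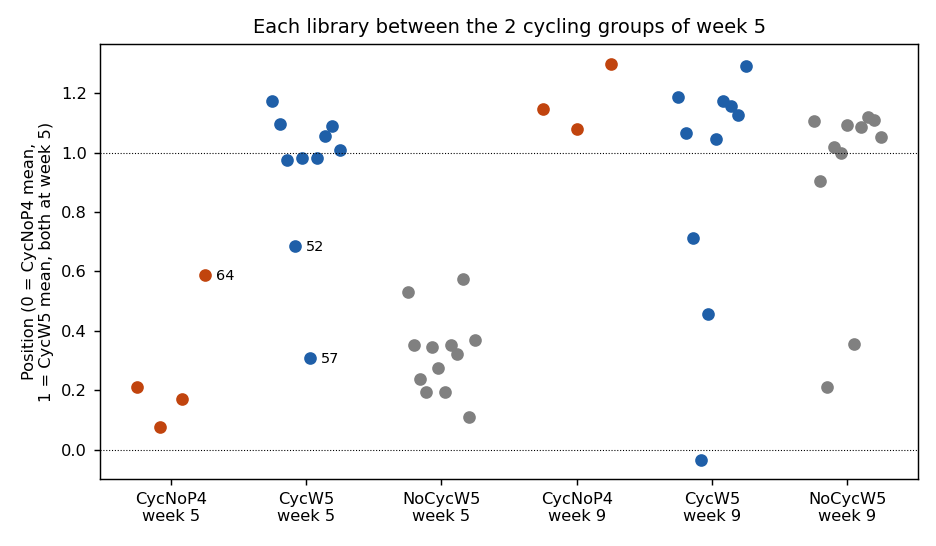
Position of each library on the axis from the week 5 CycNoP4 mean (0) to the week 5 CycW5 mean (1), for each group and week. Points are libraries. The 4 CycNoP4 libraries lie at 0.075 to 0.589, CycW5 libraries 57 and 52 at 0.309 and 0.686, and the 3 CycNoP4 libraries of week 9 at 1.08 to 1.299.

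At week 5, 2786 of 15738 tested genes differed in mRNA abundance between CycNoP4 and CycW5 cows (17.7%; edgeR quasi-likelihood test, Benjamini-Hochberg (BH) P of 0.05 or less). Of these, 1369 (8.70%) were greater and 1417 (9.00%) lesser in CycNoP4, and 1087 changed at least 2-fold (492 greater, 595 lesser). The median log2 fold change of all genes was -0.01. In 424 genes (2.69%) no library of one group overlapped the other, and 395 of these were called. Without library 57 the groups did not overlap in 850 genes.

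The count of called genes depended on single libraries. It was 4364 without CycNoP4 library 64, 1451 without library 51, 1595 without library 56 and 1793 without library 58, and 2340 to 3102 without any single CycW5 library. Without library 57 it was 3042, of which 2658 were among the 2786. Leaving out libraries 57 and 64 together gave 4426.

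**Figure D2:**
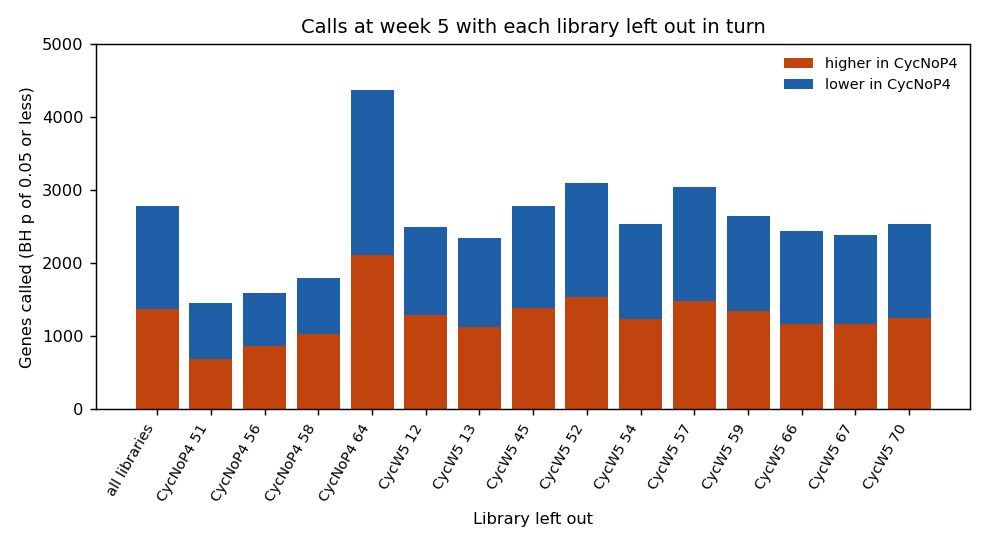
Number of genes called between CycNoP4 and CycW5 cows at week 5 after leaving out each library in turn (BH P of 0.05 or less). The count is 2786 with all libraries, 4364 without CycNoP4 library 64 and 1451 without CycNoP4 library 51.

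Gene symbols were available for 2344 of the 18830 genes in the table. These were the genes that the study had listed as changed in comparisons that partly used the CycW5 libraries, and they were called more often than all genes, so each list is read against them. Of 2245 tested genes with a symbol, 616 were called (27.4%), with 183 greater (8.15%) and 433 lesser in CycNoP4 (19.3%). By the rule for named genes, 65 genes were chosen, of which 63 were called, 24 greater and 39 lesser. Library 57 was the CycW5 library nearest to the CycNoP4 libraries in 47 of these 63 genes. All 63 were also called without it, and the groups then did not overlap in 45 genes, against 20 with it.

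The lowest BH P among genes with a symbol that were lesser in CycNoP4 belonged to OSR1 and RND2. OSR1, a zinc finger transcription factor, had 8.78, 8.68, 6.01 and 7.43 CPM in CycNoP4 libraries 51, 56, 58 and 64 and 21.1, 82.8 and 124 CPM in the lowest, median and highest CycW5 library. Its log2 fold change was -3.40 (SE 0.41, BH P = 6.86e-05). Every CycNoP4 library was below every CycW5 library, and library 57 was the lowest of the CycW5 libraries. RND2, a small GTPase, had 2.51, 2.01, 2.38 and 4.49 CPM in CycNoP4 and 8.3, 11.4 and 15.4 CPM as lowest, median and highest in CycW5. It fell by 2.03 on the log2 scale (SE 0.25, BH P = 6.86e-05). Here too the groups did not overlap, and library 64 was the highest CycNoP4 library.

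AGTPBP1, which trims glutamates from tubulin tails, had 30.7, 26, 24.5 and 36.4 CPM in CycNoP4 and 34.4, 113 and 133 CPM in CycW5 (log2 fold change -1.88, SE 0.24, BH P = 8.87e-05). The groups met only at CycW5 library 57, since the next CycW5 library was at 89 CPM. TOX, a nuclear HMG-box factor, had 5.58, 5.12, 10.2 and 8.48 CPM in CycNoP4 and 13.5, 30.5 and 40.8 CPM in CycW5 (-2.04, SE 0.27, BH P = 9.04e-05). PER1, a circadian clock repressor, had 36.6, 60.1, 36.6 and 57.6 CPM against 60.7, 148 and 183 CPM (-1.56, SE 0.22, BH P = 0.000134). All CycNoP4 libraries were below all CycW5 libraries for TOX and PER1.

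WIPF3, an actin regulator, had 5.36, 6.7, 8.05 and 17.3 CPM in CycNoP4 and 11, 126 and 205 CPM in CycW5 (-3.63, SE 0.51, BH P = 0.000153). GM2A, the activator protein for breakdown of GM2 ganglioside, had 38.6, 28.5, 26.5 and 44 CPM in CycNoP4 and 30.4, 286 and 604 CPM in CycW5 (-3.20, SE 0.47, BH P = 0.000224). In both genes only library 57 overlapped the CycNoP4 libraries, and the next CycW5 library was at 58.7 CPM for WIPF3 and 173 CPM for GM2A.

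Among genes with a symbol that were greater in CycNoP4, MAN1A1, a Golgi mannosidase that trims N-glycans, had the lowest BH P. It had 98.1, 75.5, 101 and 89 CPM in CycNoP4 libraries and 21.2, 35.8 and 55.2 CPM as lowest, median and highest in CycW5 (log2 fold change 1.27, SE 0.19, BH P = 0.000224). RAB20, a small GTPase of vesicle traffic, had 17.6, 7.89, 4.31 and 4.09 CPM against 1.13, 1.84 and 3.45 CPM (2.10, SE 0.32, BH P = 0.000264). Neither gene overlapped between groups, and library 51 was well above the other CycNoP4 libraries for RAB20. GALNT7, which takes part in the start of O-glycan chains, had 73.7, 66, 53.6 and 49.6 CPM against 24.8, 31.1 and 46.2 CPM (0.87, SE 0.15, BH P = 0.000731). TMEM98, a membrane protein, had 67.2, 66.6, 105 and 87.8 CPM against 39.7, 50.1 and 64.8 CPM (0.68, SE 0.12, BH P = 0.00068). These changes were small but no libraries overlapped.

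SCARA3, a scavenger receptor family member, had 95.2, 73.1, 125 and 114 CPM in CycNoP4 and 33.3, 50.5 and 79.5 CPM in CycW5 (1.02, SE 0.17, BH P = 0.000489). TUBB4A, a beta tubulin, had 13, 38.3, 22.2 and 20 CPM against 3.04, 5.86 and 15.4 CPM (1.76, SE 0.31, BH P = 0.000674). Library 57 was the highest CycW5 library in both and the only one to overlap. PAMR1, a secreted protein with a peptidase-like domain, had 23.6, 50.6, 121 and 145 CPM against 4.09, 6.73 and 44.3 CPM (2.90, SE 0.50, BH P = 0.000667). CycNoP4 library 51 was the lowest there, and CycW5 library 52, at 44.3 CPM, was apart from its group.

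Of the list of steroid and oxytocin receptors and their partners, 6 of 19 genes were tested. OXTR was called greater and ESR2 and FKBP5 lesser, and the median log2 fold change of the 6 was 0.43. OXTR, the oxytocin receptor, had 247, 277, 172 and 120 CPM in CycNoP4 libraries 51, 56, 58 and 64. In CycW5 it had a lowest level of 5.2, a median of 43.1 and a highest of 151 CPM (log2 fold change 2.17, SE 0.44, BH P = 0.00207). The highest CycW5 library was library 57, and the other 9 were at or below 50.4 CPM, under all CycNoP4 libraries. Without library 57 the log2 fold change was 2.60 (BH P = 3.84e-05). The NoCycW5 libraries had 80.3 to 222 CPM.

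FKBP5, a co-chaperone of steroid receptors whose transcription progestins and glucocorticoids raise, had 89, 90.3, 72.3 and 59.7 CPM in CycNoP4 and 52.9, 234 and 364 CPM in CycW5 (-1.69, SE 0.32, BH P = 0.00132). Library 57, at 52.9 CPM, was below every CycNoP4 library, and the other 9 CycW5 libraries were at 175 CPM or above. ESR2, estrogen receptor beta, had 1.63, 3.8, 6.31 and 4.12 CPM against 3.72, 13.7 and 22.8 CPM (-1.81, SE 0.53, BH P = 0.0203). It was not called without library 51 or without library 56. ESR1, estrogen receptor alpha, had 109, 166, 238 and 129 CPM against 62, 107 and 146 CPM, and its difference of 0.62 (SE 0.30) did not pass the test (BH P = 0.153). The coactivator NCOA3 (0.72, BH P = 0.0615) did not pass either, but it was called without library 57 or without library 64. The progesterone receptor gene had no symbol here and is not described.

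In the prostaglandin list, 1 of 7 tested genes was greater and 1 lesser in CycNoP4 (median log2 fold change -0.03). Over all tested genes with a symbol the shares were 8.15% and 19.3%. PTGES, which makes prostaglandin E, had 10, 5.88, 11.7 and 13.8 CPM in CycNoP4 and 1.4, 2.85 and 8.71 CPM in CycW5 (1.68, SE 0.39, BH P = 0.0051). HPGD, which inactivates prostaglandins, had 115, 49.6, 6.46 and 10.6 CPM in CycNoP4 and 12.1, 372 and 611 CPM in CycW5 (-2.96, SE 0.76, BH P = 0.00947). Library 57 was the CycW5 library nearest to CycNoP4 in both, and without it the highest CycW5 library was at 4.14 CPM for PTGES and the lowest at 159 CPM for HPGD, so the groups did not overlap. PTGS2, the inducible cyclooxygenase that begins prostaglandin synthesis, had 511, 100, 14.3 and 19.9 CPM in CycNoP4 and spread from 17.5 to 513 CPM in CycW5. Its difference was 0.02 (SE 0.81, BH P = 0.987), and both groups spanned nearly the same range. The prostaglandin F receptor PTGFR (1.83, SE 0.95, BH P = 0.177) also did not pass.

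Genes of luteal-phase secretion and metabolism were lesser in CycNoP4 or did not pass the test. Of 10 tested genes 4 were lesser and 0 greater, with a median log2 fold change of -2.08, against -0.09 over all tested genes with a symbol. Besides GM2A these were DKK1, DGAT2 and SLC5A1. DKK1, a secreted Wnt inhibitor, had 1.94, 2.97, 2.38 and 3.58 CPM in CycNoP4 and 4.07, 17.7 and 32.8 CPM in CycW5 (-2.75, SE 0.42, BH P = 0.000264), with no overlap. DGAT2, the enzyme of the last step of triglyceride synthesis, had 8.21, 2.21, 4.72 and 3.34 CPM against 3.76, 24.5 and 107 CPM (-3.06, SE 0.72, BH P = 0.00524). SLC5A1, the sodium-coupled glucose transporter, had 4.98, 2.51, 0.0378 and 0.439 CPM against 1.18, 9.11 and 72.2 CPM (-3.23, SE 0.97, BH P = 0.024). The groups overlapped for DGAT2 and SLC5A1, and SLC5A1 was not called without library 56 or without library 58. IGFBP1 (-2.64, SE 1.83), LPL (-1.52, SE 0.70) and SPP1 (0.68, SE 0.68) had wide errors and did not pass the test, with BH P of 0.32, 0.124 and 0.512.

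**Figure D3:**
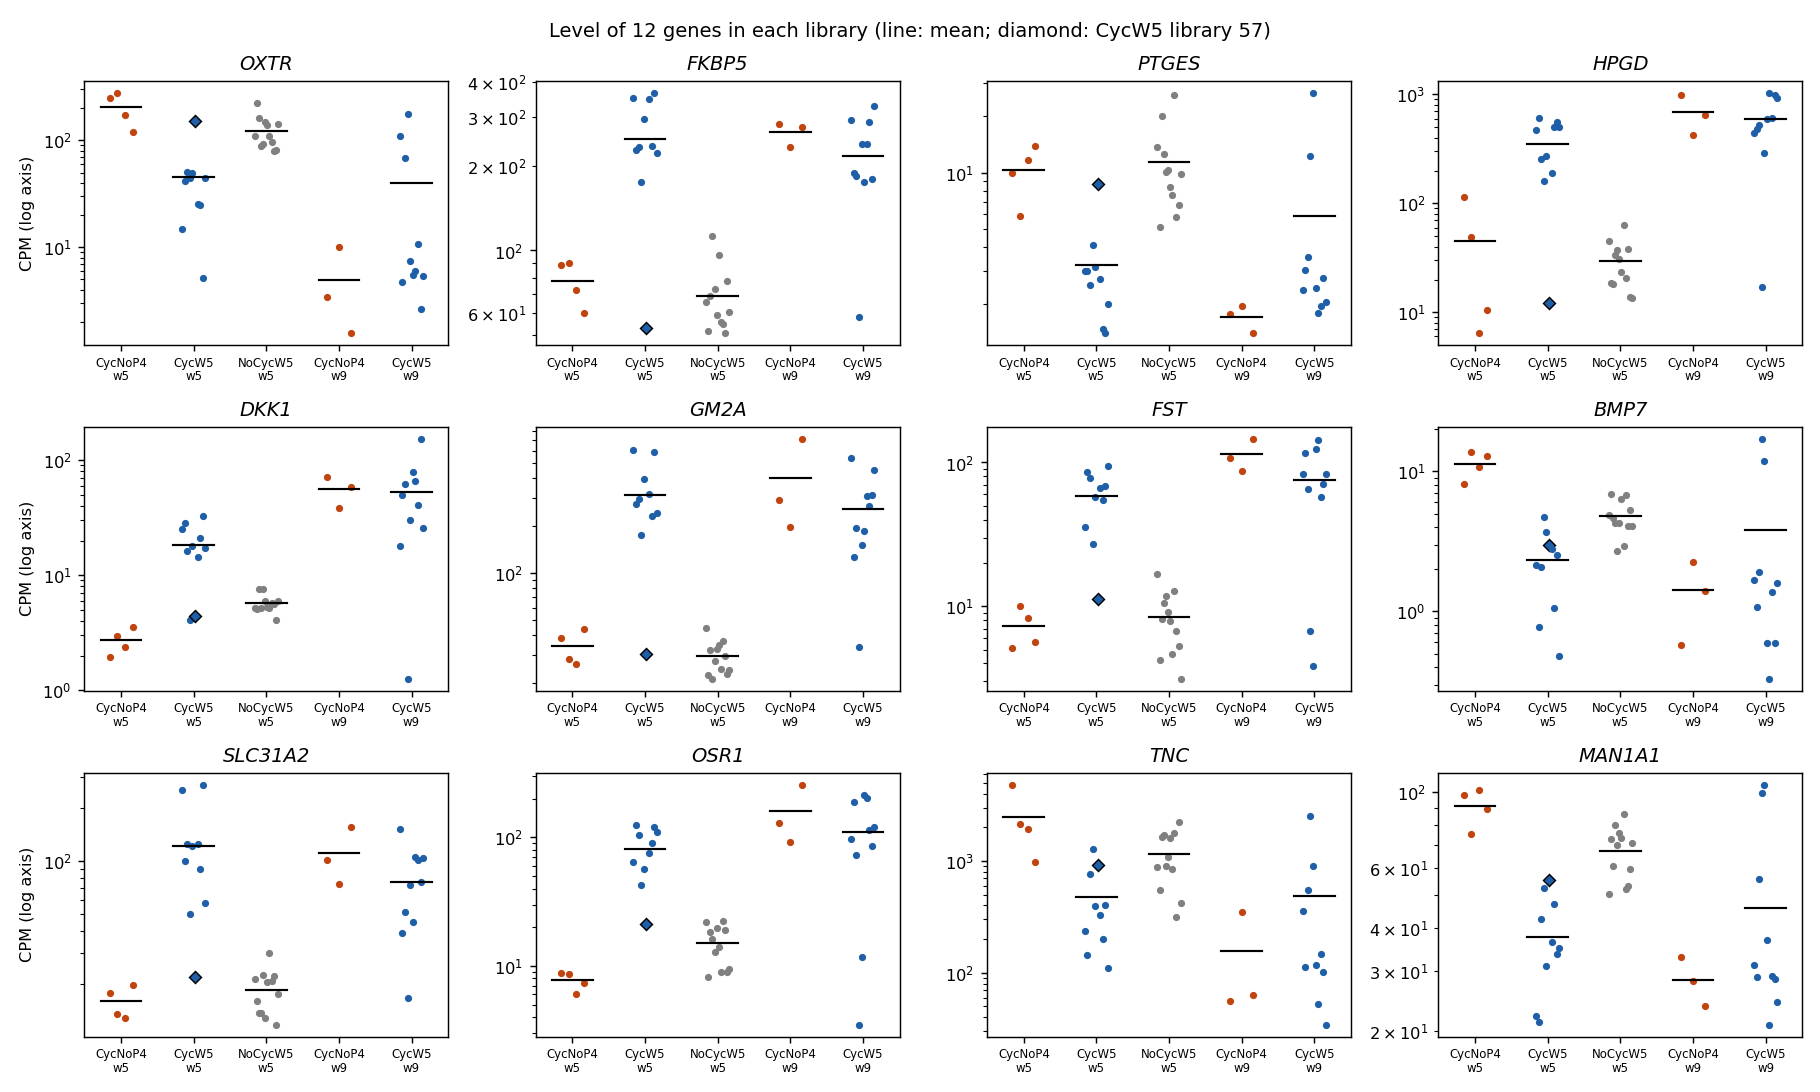
Level in CPM (log axes) of 12 genes in each week 5 library of CycNoP4, CycW5 and NoCycW5 cows and in each week 9 library (w9) of the CycNoP4 and CycW5 cows. Points are libraries, lines are means and the diamond is CycW5 library 57. In OXTR the 4 CycNoP4 libraries lie at 120 to 277 CPM and the CycW5 libraries other than 57 at 50.4 CPM or below; in FKBP5 they lie at 59.7 to 90.3 CPM and the CycW5 libraries other than 57 at 175 CPM or above.

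Transporters of nutrients and water were mostly lesser in CycNoP4 where they passed the test. Of 17 tested genes, 9 were lesser and 1 greater (median log2 fold change -0.89), against 19.3% and 8.15% of all tested genes with a symbol. The list holds transporters that the study reported as greater in CycW5 than in NoCycW5 cows. Of these, SLC31A2, SLC7A4, SLC30A5 and SLC17A5 were called lesser here. SLC38A1 (-0.07, BH P = 0.944), SLC30A6 (0.16, BH P = 0.482) and SLC19A2 (-0.89, BH P = 0.0751) did not pass the test. The study's report rested partly on the same CycW5 libraries, so the direction of these transporters here is not independent evidence. SLC31A2, a copper transport protein, had 17.9, 13.6, 12.8 and 19.8 CPM in CycNoP4 and 22, 111 and 272 CPM in CycW5 (-2.94, SE 0.48, BH P = 0.000412), with no overlap. SLC23A1, a vitamin C transporter, had 9.38, 9.84, 3.21 and 7.16 CPM against 8.65, 44.5 and 59.5 CPM (-2.41, SE 0.41, BH P = 0.000489). SLC7A4, of the cationic amino acid transporter family, had 10.1, 9.01, 6.2 and 11 CPM against 8.16, 32.2 and 58.8 CPM (-1.87, SE 0.37, BH P = 0.00187). Only library 57 overlapped CycNoP4 in SLC23A1 and SLC7A4. SLC25A29, a mitochondrial carrier of basic amino acids, had 55, 32.3, 22.6 and 26 CPM against 32.1, 65.3 and 89 CPM (-0.94, SE 0.24, BH P = 0.00938), and it was not called without library 58 (BH P = 0.0563) or when only the 14 libraries compared were fitted (BH P = 0.0509). The others lesser, besides SLC5A1, were the water channel AQP4 (-2.30), the fatty acid transporter SLC27A6 (-3.47), the zinc transporter SLC30A5 (-0.83) and the lysosomal sialic acid transporter SLC17A5 (-0.50). The transporter called greater was SLC1A5, which carries glutamine (1.08, SE 0.32, BH P = 0.0218). The number lesser was 4 without library 58 and 5 without library 56, and 10 without library 57.

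In the Wnt pathway, 3 of 9 tested genes were lesser and 2 greater in CycNoP4 (median -0.15). Tested genes with a symbol were lesser in 19.3% and greater in 8.15%. The ligand WNT16 had 5.58, 15.7, 9.1 and 11.1 CPM in CycNoP4 and 14.2, 34.4 and 45.7 CPM in CycW5 (-1.70, SE 0.34, BH P = 0.00195). The ligand WNT11 had 8.24, 4.56, 2.04 and 4.39 CPM against 2.01, 23.1 and 58.9 CPM (-2.47, SE 0.57, BH P = 0.00472). DKK1, described above, was the other gene lesser. In WNT16 and WNT11 only library 57 overlapped the CycNoP4 libraries, the next CycW5 library being at 24 and 10.5 CPM. AXIN2, a target and inhibitor of the pathway, had 51.4, 77.4, 88.2 and 61.5 CPM against 31.4, 43.7 and 57.5 CPM (0.68, SE 0.16, BH P = 0.00539). The ligand WNT4 (1.89, SE 0.47, BH P = 0.00739) had its highest CycNoP4 level, 12.5 CPM, in library 51, and without that library its difference of 1.25 did not pass the test (BH P = 0.104). CTNNB1, LEF1, LGR4 and SFRP2 did not pass.

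Of 14 growth factors, receptors and binding proteins tested, 4 were greater and 2 lesser (median 0.24). All tested genes with a symbol had shares of 8.15% and 19.3%. BMP7, a ligand of the TGF-beta family, had 8.09, 13.7, 10.8 and 12.8 CPM in CycNoP4 and 0.48, 2.36 and 4.74 CPM in CycW5 (2.27, SE 0.35, BH P = 0.000317). FST, follistatin, which binds and blocks activins, had 5.09, 10, 8.27 and 5.64 CPM against 11.3, 62 and 95.2 CPM (-3.01, SE 0.49, BH P = 0.000412). The groups did not overlap in either gene, and the lowest CycW5 library for FST was library 57. The placental growth factor PGF was the other gene lesser in CycNoP4 (-1.05, SE 0.35, BH P = 0.0379), and it was not called without library 56, 58 or 64.

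The other 3 genes greater were not called without CycNoP4 library 51, though only FGF7 lost its difference. FGF7, a fibroblast growth factor for epithelium, had 65 CPM in library 51 and 4.09, 2.76 and 1.55 CPM in libraries 56, 58 and 64, against 2.19, 2.83 and 5.47 CPM in CycW5 (2.46, SE 0.61, BH P = 0.00804). Without library 51 the difference was -0.25 (BH P = 0.785). IGFBP3, which binds insulin-like growth factors, had 595, 191, 213 and 137 CPM against 46.9, 64.4 and 232 CPM (1.67, SE 0.42, BH P = 0.00854), and 1.02 without library 51 (BH P = 0.137). GDF15, a stress-responsive TGF-beta family member, had 3.3, 2.34, 2.38 and 0.203 CPM in CycNoP4 and at most 1.23 CPM in CycW5 (1.87, SE 0.50, BH P = 0.0125), and its difference was 1.55 without library 51 (BH P = 0.0787). For GDF15 library 64 was the only CycNoP4 library within the CycW5 range.

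The call in the inflammation list also rested on library 51. Of the 7 tested genes 1 was greater in CycNoP4 and 0 lesser (median 0.42). The number greater was 0 without library 51, 2 without library 56 or 57 and 3 without library 58 or 64. The number lesser was 0 in each of these fits. The cytokine IL6 had 11.5 CPM in library 51, 0.924, 0.604 and 0.203 CPM in the other 3, and 0.12, 0.348 and 1.27 CPM in CycW5 (2.60, SE 0.70, BH P = 0.0123). Without library 51 the difference was 0.09 (BH P = 0.946). The chemokine CCL2 (1.58, BH P = 0.0722) and the receptor TNFRSF1A (0.42, BH P = 0.082) did not pass with all libraries.

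Matrix genes that passed were greater in CycNoP4, with 3 of 9 tested and 0 lesser (median 0.42). Over tested genes with a symbol 8.15% were greater and 19.3% lesser. TNC, tenascin C, a matrix glycoprotein of remodelling tissue, had 4810, 2150, 1930 and 977 CPM in CycNoP4 and 110, 363 and 1290 CPM in CycW5 (2.36, SE 0.52, BH P = 0.00356). FN1, fibronectin, had 2720, 4330, 3000 and 2110 CPM against 620, 1040 and 3280 CPM (1.26, SE 0.30, BH P = 0.00551). VCAN, the proteoglycan versican, had 220, 600, 289 and 354 CPM against 47, 129 and 412 CPM (1.15, SE 0.36, BH P = 0.0295). All 3 overlapped between groups, for FN1 through CycW5 library 52 alone, and VCAN was not called without library 56. Elastin ELN (0.28), the collagen COL14A1 (0.42) and the protease inhibitor TIMP2 (-0.75) did not pass.

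Of 7 uterine transcription factors tested, 3 were lesser and 1 greater (median -0.25), against 19.3% and 8.15% of tested genes with a symbol. ZBTB16, a zinc finger repressor, had 1.44, 1.55, 1.78 and 3.01 CPM in CycNoP4 and 2.7, 17.5 and 30.1 CPM in CycW5 (-3.1, SE 0.56, BH P = 0.000937). SOX17, which is needed for uterine glands, had 20.2, 21.7, 24.9 and 43.6 CPM against 38, 86.2 and 102 CPM (-1.51, SE 0.33, BH P = 0.00335). In both genes library 64 was the highest CycNoP4 library and overlapped only library 57. PAX2 had 13.5, 22.2, 19.2 and 28 CPM against 24.5, 49.3 and 102 CPM (-1.46, SE 0.38, BH P = 0.0114), and was not called without library 51. EMX2, at 95.4, 157, 142 and 144 CPM against 73, 101 and 129 CPM, differed little (0.42, SE 0.14, BH P = 0.0342), and the call was lost without CycNoP4 library 56, 58 or 64, without CycW5 library 67 and when only the 14 libraries compared were fitted.

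Of 16 genes of epithelial adhesion and junctions tested, 6 were lesser and 2 greater in CycNoP4 (median -0.84). The shares over tested genes with a symbol were 19.3% and 8.15%. ITGB4, the integrin beta chain of hemidesmosomes, had 175, 180, 74.4 and 149 CPM in CycNoP4 and 117, 402 and 647 CPM in CycW5 (-1.50, SE 0.31, BH P = 0.0025). CEACAM1, an adhesion molecule of a multi-copy family whose reads may be shared between copies, had 31.4, 32.8, 50.5 and 87.3 CPM against 67.3, 155 and 253 CPM (-1.73, SE 0.34, BH P = 0.00179). PLLP, a membrane protein of epithelium and myelin, had 7.29, 3.4, 2.64 and 2.46 CPM against 1.48, 31.6 and 97.7 CPM (-3.17, SE 0.69, BH P = 0.0032). Library 57 was the lowest CycW5 library in all 3 and the only one to overlap CycNoP4. The claudins, which seal or open the space between epithelial cells, went both ways. CLDN10 had 117, 235, 389 and 56.1 CPM in CycNoP4 against 6.55, 38 and 65 CPM (2.49, SE 0.50, BH P = 0.00191), with library 64 the lowest and within the CycW5 range, whereas CLDN7 (-1.10, BH P = 0.0137) and CLDN3 (-1.09, BH P = 0.0427) were lesser. Integrin ITGAV was greater (1.08, BH P = 0.0329) and desmocollin DSC3 lesser (-2.66, BH P = 0.033). The number lesser was 8 without library 57, 3 without library 58 and 4 without library 56 or 64. CLDN7, CLDN3 and DSC3 were not called without library 58, and ITGAV was not called without library 51, 56 or 58.

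Which sterol genes passed the test depended on library 64. Of 16 tested genes of sterol synthesis and uptake, 2 were lesser and 0 greater (median 0.11). The shares over tested genes with a symbol were 19.3% and 8.15%. FDFT1, squalene synthase, had 105, 203, 122 and 72.5 CPM in CycNoP4 and 93.2, 214 and 295 CPM in CycW5 (-0.71, SE 0.23, BH P = 0.0328). TM7SF2, a sterol reductase, had 26.9, 51.2, 28.4 and 37.4 CPM against 35.2, 57.9 and 101 CPM (-0.73, SE 0.24, BH P = 0.0366). Each of these calls was lost in 5 of the 14 fits that left out a library. Without library 64, 5 genes were greater and 1 lesser, and FDFT1 was not called (BH P = 0.0984). HMGCS1, an early enzyme of the pathway, had 148, 370, 112 and 35.2 CPM in CycNoP4, so that library 64 was lowest. Its difference was 1 on the log2 scale with library 64 (BH P = 0.0649) and 1.33 without it. Among the other genes greater without library 64 were SQLE (1.25), STARD4 (0.71) and DHCR7 (0.59). Without library 51 or without library 58, 0 of the 16 passed in either direction.

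In steroid metabolism 2 of 3 tested genes were lesser. HSD17B4, a peroxisomal enzyme that despite its name acts mainly in the breakdown of fatty acids, had 122, 131, 102 and 130 CPM in CycNoP4 and 117, 217 and 318 CPM in CycW5 (-0.81, SE 0.17, BH P = 0.00302), with only library 57 overlapping. SRD5A3, known for its part in dolichol synthesis, had 4.29, 5.55, 5.1 and 5.84 CPM against 5.67, 7 and 8.46 CPM (-0.46, SE 0.15, BH P = 0.0361). SRD5A3 was not called in 6 of the 14 fits that left out a library, those without CycNoP4 libraries 51, 56 and 58 and CycW5 libraries 13, 66 and 67 (BH P up to 0.142), nor in 2 of the 9 other settings.

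A list of 19 genes had been singled out from earlier results of the comparison of CycW5 with NoCycW5 cows in these data. That choice rested partly on the same CycW5 libraries, so their direction here is not independent evidence. Of the 19, 11 were lesser and 0 greater in CycNoP4 (median -1.52). ENPP4, an ectonucleotidase, had 72.7, 79.2, 51.4 and 32.7 CPM in CycNoP4 and 51, 303 and 657 CPM in CycW5 (-2.48, SE 0.40, BH P = 0.000433). TPCN1, an endolysosomal cation channel, had 13.4, 35.4, 39.6 and 23.8 CPM against 23.3, 81 and 148 CPM (-1.62, SE 0.31, BH P = 0.00154). DYDC1 had 0.342, 0.231, 0.189 and 0.169 CPM against 0.132, 3.32 and 5.24 CPM (-3.70, SE 0.73, BH P = 0.00159). The next CycW5 library after 57 was at 220 CPM for ENPP4, 63.8 CPM for TPCN1 and 1.65 CPM for DYDC1, above all CycNoP4 libraries. MAT1A, TST, ENPP5, ANKRD33B and CHRNA1 were also lesser, and BCL2, EDNRA and FXYD6 were among the 8 that did not pass.

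**Figure D4:**
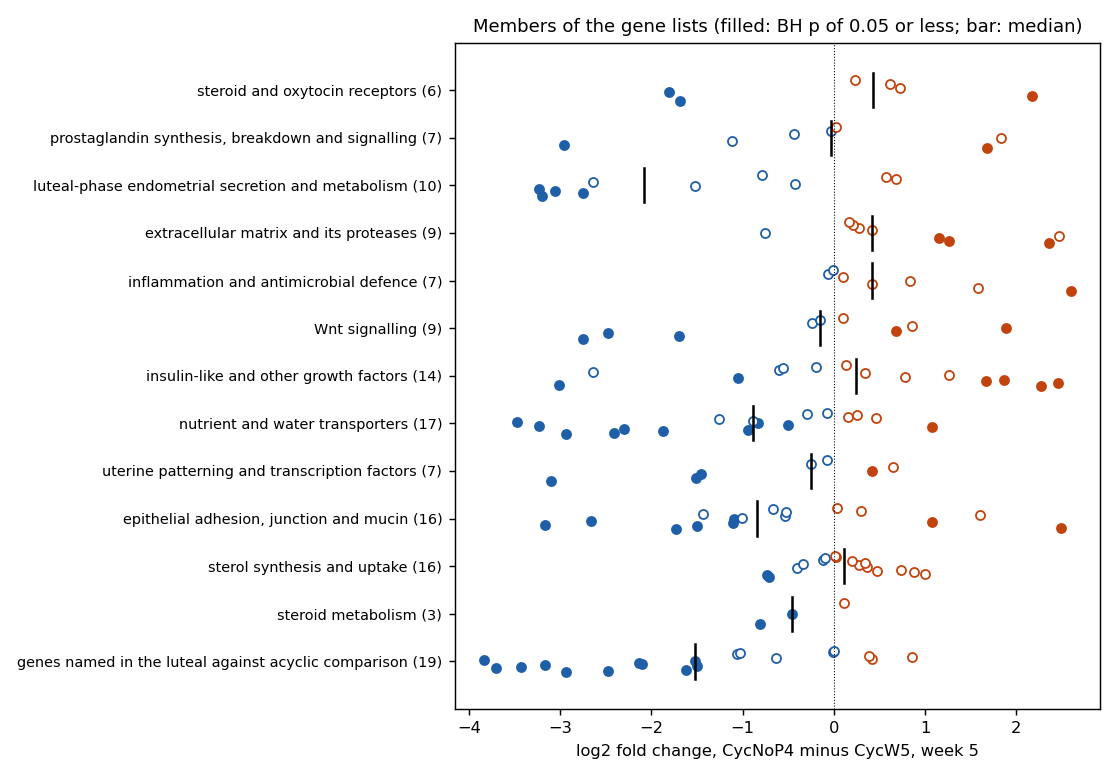
Log2 fold change (CycNoP4 over CycW5, week 5) of the tested members of each gene list. Each point is a gene, filled where its BH P was 0.05 or less, and bars are medians. In the list of luteal-phase secretion and metabolism 4 of 10 genes are lesser and 0 greater, and in the matrix list 3 of 9 are greater and 0 lesser.

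Among genes with a symbol whose libraries did not overlap, those with the largest changes included some detected at low level. CHRNA2, a nicotinic receptor subunit, had 0 reads in all 4 CycNoP4 libraries and 0.0329, 0.991 and 23.6 CPM as lowest, median and highest in CycW5 (BH P = 0.0233). Its CycW5 mean of 5.62 CPM (SD 9.18) was 211-fold the 0.0266 CPM that 3 reads over the CycNoP4 group would give. That mean lay far above the median, so the ratio rests on the highest CycW5 libraries. It was called neither without library 51, nor 56, nor 58. The call was also lost with limma-voom, with or without library weights, and when only the 14 libraries compared were fitted. ATP1B2, a sodium pump subunit, had 14.2, 6.93, 4.5 and 15.9 CPM in CycNoP4 against 17.3, 118 and 176 CPM (-3.41, SE 0.53, BH P = 0.000317). F10, coagulation factor X, had 12, 2.81, 3.7 and 9.42 CPM against 18, 58 and 111 CPM (-3.12, SE 0.57, BH P = 0.00101). Library 57 was the lowest CycW5 library in these 3 genes. LDLRAD1, at 0.836, 0.495, 0.34 and 0.304 CPM against 1.02, 3.45 and 9.18 CPM, fell by 3.1 on the log2 scale (SE 0.66, BH P = 0.00268).

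In the other direction, UGT2A3, a glucuronosyltransferase of a multi-copy family whose reads may be shared, had 4.82, 2.51, 21 and 4.63 CPM in CycNoP4 and 0, 0.287 and 1.64 CPM in CycW5 (4.07, SE 0.85, BH P = 0.00247). ABCA13, a lipid transporter of the ABC family, had 44.7, 36.9, 11.9 and 54.4 CPM against 1.3, 3.72 and 11.4 CPM (2.96, SE 0.72, BH P = 0.0066). ARHGAP28, a GTPase-activating protein, had 27.5, 10.9, 25.4 and 12.4 CPM against 4.36, 7.66 and 10.8 CPM (1.32, SE 0.32, BH P = 0.0063). The lowest CycNoP4 libraries of ABCA13 and ARHGAP28 were only just above the highest CycW5 library.

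Markers of cell types were checked where they had a symbol. The epithelial markers EPCAM (0.17), KRT8 (0.14), GRHL2 (-0.16), CLDN4 (-0.67) and OVOL1 (-0.91) did not pass the test, and their summed level was 485 to 896 CPM in CycNoP4 and 341 to 1220 CPM in CycW5. The stromal marker PDGFRA (-0.07, BH P = 0.863) and the 3 endothelial markers tested (median 0.34) did not pass either, with summed levels of 269 to 727 against 280 to 711 CPM and 245 to 397 against 174 to 350 CPM. SOX17, the only tested marker of glands, was lesser, as given above. PRG3, an eosinophil granule protein, had 2 reads over the 4 CycNoP4 libraries and 594 over the 10 CycW5 libraries, a ratio of levels of 0.00846 (95% interval 0.00102 to 0.0307, for counting error only; BH P = 0.00153), and it was 0 CPM in CycW5 library 57 and 0.239 to 5.38 CPM in the others. The part of eosinophil or gland content in the other results was not tested. Markers of immune cells other than eosinophils, ciliated cells and smooth muscle were not analysed here, and of the cell cycle list only MCM7 was tested (0.21, BH P = 0.256).

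The NoCycW5 libraries lay at 0.109 to 0.575 on the axis from all compared libraries and were part of the same fit. Against them 4313 genes were called in CycW5 cows (27.4%) and 2319 in CycNoP4 cows (14.7%). The 4 CycNoP4 libraries give less power than the 10 CycW5 libraries, so these counts do not measure how alike the groups are. These comparisons share the CycW5 or CycNoP4 libraries with the main one, so values are only set side by side. Of the 63 called genes, 56 were also called in CycW5 against NoCycW5 and 11 in CycNoP4 against NoCycW5. Their symbols came from genes that the study had listed as changed. They were called in a contrast that shares the CycW5 libraries with the first comparison and the CycNoP4 libraries with the second. Both numbers are therefore partly built in. The shares of 27.4% and 14.7% are over all genes, without such a choice, so they are no fair measure for either number. OXTR had a log2 fold change of -1.43 in CycW5 against NoCycW5 (BH P = 0.00391) and of 0.74 in CycNoP4 against NoCycW5 (BH P = 0.234). FKBP5 had 1.88 (BH P = 7.37e-07) and 0.19 (BH P = 0.655), and HPGD 3.58 (BH P = 8.04e-06) and 0.63 (BH P = 0.467). Some of the 63 genes did differ between CycNoP4 and NoCycW5. BMP7 was 1.26 higher on the log2 scale in CycNoP4 (BH P = 0.0223), CLDN10 1.66 higher (BH P = 0.0272), RND2 fell by 1.39 (BH P = 0.00242) and TOX fell by 1.36 (BH P = 0.00343). WNT11, by contrast, had 1.05 to 3.86 CPM in NoCycW5 libraries, and its difference of 1.23 in CycNoP4 did not pass the test (BH P = 0.0683).

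At week 9, after synchronization, the same contrast was made between 3 CycNoP4 and 10 CycW5 libraries. By the edgeR test 0 of 15771 genes were called (0%), 684 had an unadjusted p under 0.05 and the lowest BH P was 0.837. DESeq2 called 3 genes, all lesser in CycNoP4, and limma-voom called 0. The smaller group limits what this could find. The genes called at week 5 had a median absolute log2 fold change of 0.80 then and of 0.19 at week 9, against 0.30 and 0.16 over all genes. Those greater in CycNoP4 at week 5 had a median of 0.73 then and -0.20 at week 9, and those lesser -0.85 and 0.13. Of the 63 called named genes, 55 had the opposite sign at week 9, and 0 passed the test. These genes were chosen mostly for their week 5 difference, share the same libraries and are not independent of each other. The share with opposite signs was not counted over all tested genes. On the axis the 3 CycNoP4 libraries of week 9 lay at 1.08 to 1.299, and the CycW5 libraries of week 9 spread from -0.034 to 1.293 (median 1.096), with libraries 87, 89 and 83 at -0.034, 0.457 and 0.711 and the other 7 at 1.044 or above. The part of these 3 libraries in the opposite signs was not tested.

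The genes for the oxytocin receptor and FKBP5 had low and high levels, respectively, in CycNoP4 cows at week 9. OXTR had 3.41, 10 and 1.58 CPM in the week 9 CycNoP4 libraries and 2.64 to 178 CPM in the week 9 CycW5 libraries (-3.01, BH P = 0.837). FKBP5 had 282, 233 and 275 CPM against 57.7 to 326 CPM (0.27, BH P = 0.911). In both genes the CycNoP4 libraries of week 9 were on the side of the week 5 CycW5 median.

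A test of the difference between weeks, over 27 libraries, called 91 of 15869 genes (0.573%; 67 positive and 24 negative, where positive means that CycNoP4 stood higher relative to CycW5 at week 9 than at week 5). Libraries of both weeks may come from the same cows but were treated as independent. Of the 91, 88 had been called at week 5, against 17.7% of all genes tested at week 5. The test of the difference uses the same week 5 libraries, so this overlap is partly built in. The lowest BH P was 0.0436, and 15 of the 27 fits that left out a library called 0 genes, so this count is not stable. RND2 differed by 2.40 (SE 0.45, BH P = 0.0475), TOX by 2.73 (SE 0.49, BH P = 0.0475) and WNT16 by 2.12 (SE 0.40, BH P = 0.0475). A4GALT, which makes the glycolipid globotriaosylceramide, had 139, 114, 78 and 27.6 CPM in week 5 CycNoP4 libraries and 19.7, 23.8 and 39 CPM as lowest, median and highest in CycW5 (1.76, SE 0.33), and 20.2, 18.4 and 22.2 CPM in week 9 CycNoP4 libraries (difference -2.21, SE 0.50, BH P = 0.0476). AOX1, aldehyde oxidase, had 1110, 553, 513 and 124 CPM against 58.3, 113 and 325 CPM at week 5 (2.12, SE 0.42) and 150, 107 and 79.4 CPM in CycNoP4 at week 9 (difference -3.08, SE 0.72, BH P = 0.0476). Library 64 was the CycNoP4 library nearest to CycW5 in both genes.

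**Figure D5:**
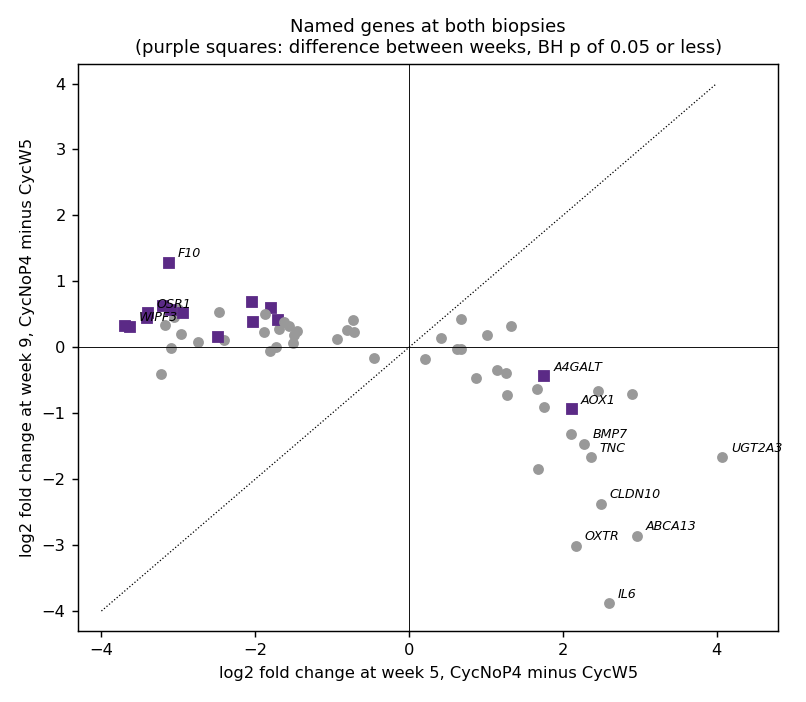
Log2 fold change (CycNoP4 over CycW5) at week 5 (horizontal) and at week 9 (vertical) of 63 of the 65 named genes; CHRNA2 and PRG3, at or near 0 reads in week 5 CycNoP4 libraries, are left out. Each symbol is a gene, purple squares are the 15 genes called for the difference between weeks and the dotted line marks equal fold changes. Of the genes drawn, 55 have opposite signs at the 2 weeks, and 0 are called at week 9. The genes were chosen mostly for their week 5 difference and are not independent of each other.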

How the data were processed

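Endometrial RNA was extracted with Trizol, made into stranded messenger RNA libraries and sequenced as single-end reads. Per the study's methods, the authors aligned reads with HISAT2 to the UMD3.1 bovine genome and counted them per gene with FeatureCounts (the submitters' notes also name StringTie and edgeR). The deposited values are raw counts of 18830 genes in 50 libraries, without normalization.

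The 26 week 5 libraries were fitted as 3 groups with edgeR 4.0.16 in R 4.3.3 (TMM scaling, filterByExpr with a minimum count of 10, robust quasi-likelihood test, Benjamini-Hochberg adjustment over all tested genes, threshold 0.05), and the contrast was CycNoP4 against CycW5. Week 9 was fitted with its 24 libraries and the difference between weeks with 27. Standard errors come from the fold change and F statistic. Scripts were tested on simulated data.

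Symbols came from the study's supplementary gene lists and from RefSeq accessions, and only genes with a symbol were ranked for naming. Named genes were the 8 with the lowest BH P in each direction, the receptor genes, up to 4 per list, the 5 in each direction with the largest change and no overlap between groups, called markers, and 3 in each direction for the difference between weeks. Values of a few genes are not reported here. The members, lists and rule were chosen with earlier results of these data known. DESeq2 1.42.0, limma 3.58.1 (voom), other scalings, filters and left-out libraries were alternatives. Reads per library limit precision, and intervals cover counting error only.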

Additional observations from a re-analysis of the deposited data

Results flagged for a closer look

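Dixon's test was applied to log2 CPM in groups of 4 to 10 libraries. A library was singled out where its gap to its nearest neighbour was large for the group's range. Chance does this in about 1 of 20 groups. Gaps in CPM can look larger or smaller than on the log2 scale. CycNoP4 library 51 was thus not singled out in FGF7 (65 CPM) or IL6 (11.5 CPM), though it was far above its group in CPM. Among the named genes this was so for CycW5 library 57 at its low end in AGTPBP1 (34.4 CPM), PER1 (60.7 CPM), WIPF3 (11 CPM), GM2A (30.4 CPM), FKBP5 (52.9 CPM), HPGD (12.1 CPM), WNT11 (2.01 CPM), ENPP4 (51 CPM), TPCN1 (23.3 CPM) and DYDC1 (0.132 CPM). CycW5 library 52 stood apart in PAMR1 (44.3 CPM) and FN1 (3280 CPM), where it was the highest, and in TOX (13.5 CPM), where it was the lowest. CycNoP4 library 51 stood apart in PRG3, where it was the only one above 0 (0.076 CPM). That flag rests on 2 reads. With the other CycNoP4 libraries all at 0, it was close to fixed in advance, and the 1 of 20 does not apply to it. Of the named genes, the library singled out most often was library 57, the CycW5 library placed among the NoCycW5 libraries; the genes were picked for their difference between the groups, and they are not independent of each other.

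The difference between CycNoP4 and CycW5 itself differed between weeks, by the test of that difference, in 91 genes. Among the named genes reported it was 3.91 for OSR1, 2.40 for RND2, 2.73 for TOX, 3.94 for WIPF3, 3.83 for GM2A, 2.12 for WNT16, 3.45 for SLC31A2, 3.65 for ZBTB16, 2.63 for ENPP4, 4.02 for DYDC1, 3.85 for ATP1B2, 4.39 for F10, -2.21 for A4GALT and -3.08 for AOX1 on the log2 scale (week 9 minus week 5). Each of these genes lost its call in 19 or 20 of 36 alternatives, and each kept its sign in all of them.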

How the results depend on the processing

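At week 5 the 2786 called genes became 1771 when only the 14 libraries compared were fitted, 4426 without libraries 57 and 64 together (chosen after seeing the data), and 1451 to 4364 when each library was left out in turn; the other alternatives gave 2304 (limma-voom) to 3544 (DESeq2). With DESeq2 size factors 52.1% of the called genes were greater in CycNoP4, against 49.1%. At week 9 the count was 0 under every alternative except DESeq2, which gave 3, and 0 to 0 with each library left out. The 91 genes of the difference between weeks became 1337 with DESeq2, 1 with limma-voom, 1265 with limma-voom and library weights, 0 without a filter, 1302 with all 6 groups fitted and 2101 without libraries 57 and 64, and 0 to 2033 with each library left out; it was 446 without CycW5 library 57 and 2033 without CycNoP4 library 64. That count thus rests on the test and on single libraries, and the cause was not tested.

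Of the 63 called named genes, 47 kept their call and direction under all alternatives, 16 lost the call under at least 1, and 1 changed sign (FGF7, -0.25 without CycNoP4 library 51 and up to 2.85 without library 64). DGAT2, PLLP and WNT11 were among those not called with limma-voom. No paired analysis was possible because replicate numbers only follow accession order and no label links libraries. The promoter search planned was not run, since no promoter sequences were at hand. The number of CycNoP4 libraries (4) limits the precision of each difference.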

Other observations

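The gene groups in this section were put together after their values were seen, so their counts are descriptions, to be read against the 19.3% of tested genes with a symbol called lesser and the 8.15% called greater in CycNoP4. Enzymes and transporters of peroxisomal fatty acid breakdown were lesser in 9 of 13 tested genes and greater in 0 (median log2 fold change -0.79). AMACR, a racemase for branched-chain fatty acids, had 8.78, 14.8, 9.86 and 9.89 CPM in CycNoP4 libraries 51, 56, 58 and 64 and 12.7 to 52.5 CPM in CycW5 (-1.69, SE 0.26, edgeR BH P = 0.000284). ABCD3, a peroxisomal fatty acid transporter, had 88.4, 96.9, 106 and 93.2 CPM against 81.9 to 250 CPM (-0.92, SE 0.18, BH P = 0.00152). In both genes library 57 was the lowest of the CycW5 libraries, and every other CycW5 library was above all CycNoP4 libraries. The number lesser was 7 to 9 in the alternatives and with each library left out.

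Of 5 tested connexins, the subunits of gap junctions, 3 were lesser and 0 greater. GJB5 had 8.36, 0.198, 0.151 and 0.101 CPM in CycNoP4 and 0.164 CPM in CycW5 library 57, and 20.6 to 92.6 CPM in the other 9 CycW5 libraries (-4.16, SE 1.22, BH P = 0.0211). GJB1 (-3.46) was also lesser. With limma-voom 0 of the 5 were called, and with the fit of the 14 libraries 1 was. Of 4 tested clock genes, PER1 and CRY2 (-1.21, SE 0.20, BH P = 0.000457) were lesser, and the hour of each biopsy is not given in the sources used here.

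In the other direction, 17 of 23 tested genes of nucleolar ribosome assembly and tRNA modification were greater in CycNoP4 and 1, SHQ1 (-0.41), was lesser (median 0.48). RSL1D1, a nucleolar protein, had 172, 105, 94.5 and 61.9 CPM in CycNoP4 libraries 51, 56, 58 and 64 and 53.5 to 80.7 CPM in CycW5 (0.76, SE 0.17, BH P = 0.00391). FBL, fibrillarin, which methylates ribosomal RNA, had 110, 78.9, 65.4 and 43.5 CPM against 32.4 to 65.7 CPM (0.76, SE 0.22, BH P = 0.0199). Library 51 was the highest and library 64 the lowest in both. The number greater was 0 without library 51, 5 without library 56 and 20 without library 64.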
